A study of Mus musculus with 20 samples.

Results

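The pull-down examined here was carried out on preoptic tissue of 21-day-old female mice that expressed no tagged ribosomes, and its RNA was set against the depleted supernatant left from the same tissue. It comprised 6 of the 20 libraries of the study, which are the 3 immunoprecipitates (IP) and the 3 supernatants titled as young negative controls and numbered 1 to 3. An IP and a supernatant with the same number came from 1 pool of preoptic punches from 3 to 4 mice. Wild Type mice made up pools 1 and 2, whereas the mice of pool 3 had the Floxed L10a-GFP allele without a Cre. All 3 pools are labelled negative for L10a-GFP. In the study's positive animals a GnRH CRE allele removes a stop cassette, so that GFP-tagged L10a is made in GnRH neurons. The reference point at another age was a pair of adult negative pools (70 to 150 days, in diestrus), which carried GnRH CRE only. The labels give pools as separate samples. In fits with the pool as a block, p-values measure the spread over pools in the ratio of IP to supernatant. In fits without the block they measure the spread of libraries within each fraction.

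Translating ribosome affinity purification captures a tagged ribosomal protein with an antibody on beads and recovers the mRNA that the captured ribosomes hold. Without the tag, the beads should hold no ribosomes of a chosen cell type, and what remains should be RNA that reached the beads in another way. GnRH neurons are a small population scattered through the preoptic area, and they drive reproduction by releasing gonadotropin-releasing hormone. A list of transcripts recovered without the tag therefore tells which messages a tagged pull-down from this tissue has to exceed. It gives shares of a library and not amounts of RNA.

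The 3 IP libraries held 49.6, 36.8 and 48.3 M counts, and the 3 supernatants held 29.3, 39.2 and 33.0 M. A floor of 3 counts lay at 0.0604 to 0.0816 counts per M (CPM) in the IP and at 0.0764 to 0.102 CPM in the supernatant, and it covers counting error only. Despite the greater depth in 2 of them, the IP libraries detected fewer genes (15406 to 15494) than the supernatants (17444 to 17547). Log2 CPM correlated at 0.816 to 0.829 between IP libraries, at 0.833 to 0.868 between an IP and a supernatant, and at 0.966 to 0.988 between supernatants, across genes of shared libraries.

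Large transcripts of nuclear regulators were far higher in the pull-down, and short transcripts of ribosomal and mitochondrial proteins were lower. By edgeR's quasi-likelihood test with the pool as a block, at a Benjamini-Hochberg adjusted p under 0.05, 2058 of 15451 genes were higher in the IP than in the supernatant (13.3%) and 1958 were lower (12.7%), together 26.0%. Over all genes tested, the log2 ratio (IP over supernatant) had a median of -0.10 and quartiles of -0.69 and 0.51. A change of at least 2-fold was estimated for 1257 of the higher genes and 619 of the lower ones, and of at least 8-fold for 47 and 41. Among the lower genes, 29 had at most 3 counts in every IP library, and 20 had 0 in all of them. Fitted folds of such genes rest on the floor, so the numbers of large rises and falls are not alike in kind. No higher gene had 0 counts in all supernatants. When libraries were scaled by their size alone, the split became 2515 higher and 1484 lower, and the median of all genes moved to 0.04. Without pool 1, 2 or 3 the higher calls numbered 1241, 996 and 1359, and without supernatant 1, 2 or 3 they numbered 1015, 930 and 1229. The lower calls numbered 1142 and 1074 without pools 1 and 2, and 1059 and 972 without supernatants 1 and 2.

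The 12 steepest rises among well-detected genes were nearly all of genes for large nuclear proteins. Prr12, the gene of a proline-rich protein of the nucleus, lies on chromosome 7 from 45027563 to 45052881 (GRCm38). It stood at 1589, 1398 and 1157 CPM in the 3 IP libraries, against 12.7, 12.6 and 10.46 CPM in the supernatants. These are counts per M scaled by the trimmed mean of M values (TMM) and not divided by transcript length. The 2 sets lay far apart and the IP was 116-fold higher by the ratio of means (log2 6.85, SE 0.10, adjusted p = 3.30e-06). Bcor, a corepressor that binds BCL6 (chromosome X, 12036740 to 12160355), stood at 536, 554 and 397 CPM in the IP and at 4.33, 3.72 and 4.23 CPM in the supernatant (log2 6.91, SE 0.18, adjusted p = 2.41e-05). Mn1, a transcriptional coregulator (chromosome 5, 111417362 to 111457033), was read at 1848, 2739 and 1968 CPM in the IP and at 38.2, 31.8 and 37.3 CPM in the supernatant, a log2 ratio of 5.91 (SE 0.19). IP 2 stood above the other two here, and all 3 were far above every supernatant.

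The same direction held in every pool for the others, which the choice of genes with separate libraries required. Tnrc18 (log2 6.60, SE 0.24) and Bahcc1 (6.53, SE 0.16) encode chromatin proteins with a bromo-adjacent homology domain. Gse1 (5.98, SE 0.23), Yeats2, a reader of acylated histones (5.81, SE 0.25), and Rai1, the retinoic acid induced gene whose dosage matters in human development (5.71, SE 0.12), came next. Gli2, a transcription factor of hedgehog signalling, stood at 39.3, 41.7 and 34.4 CPM in the IP against 1.16, 1.32 and 0.467 CPM in the supernatant (5.37, SE 0.37). Nup98, a nuclear pore protein that also acts in the nucleoplasm, rose by 5.14 (SE 0.19), Ylpm1 by 4.96 (SE 0.21) and Jmjd1c, of the Jumonji family of histone demethylases, by 4.45 (SE 0.20). Adjusted p of these 9 lay between 1.67e-05 and 0.000613, and each of the 12 rises passed when any 1 pool or library was left out.

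**Figure D1:**
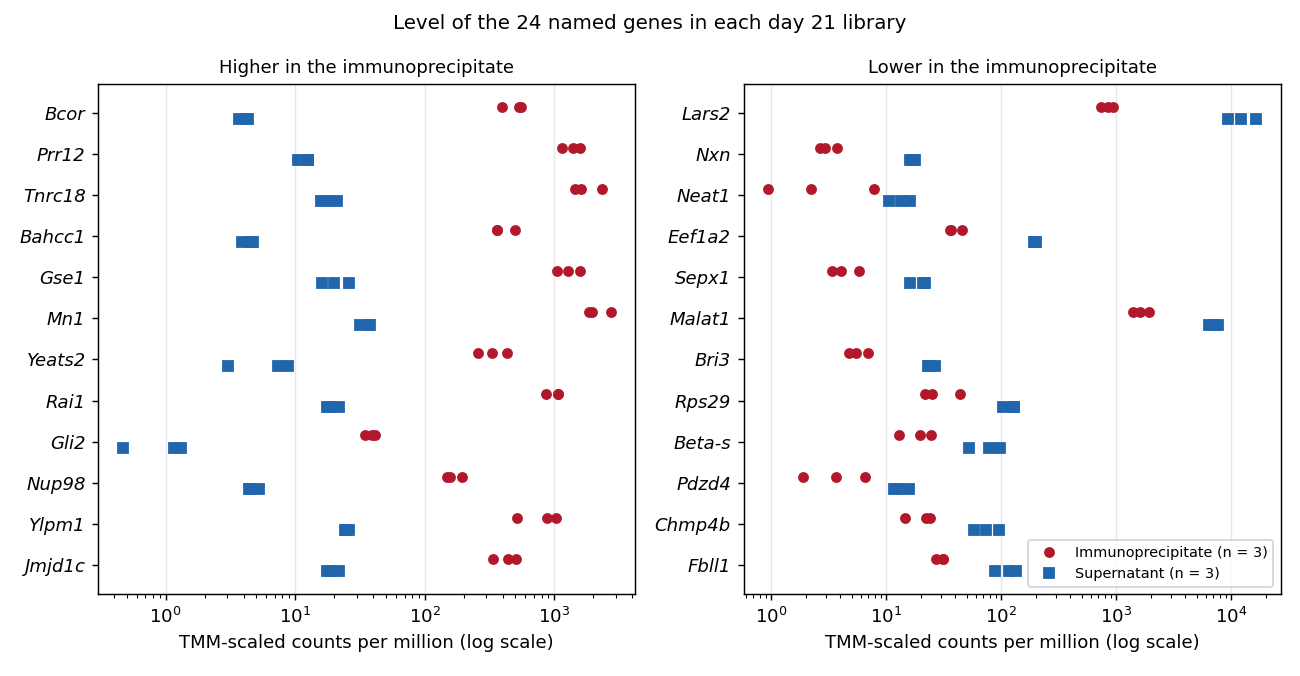
TMM-scaled CPM (log axis) of the 12 genes named as higher and the 12 named as lower, 1 point per library, red circles for the 3 IP libraries and blue squares for the 3 supernatants. The 24 genes were picked among those whose 3 red and 3 blue points do not overlap, so that separation is no finding. On the left the groups stand 22.0-fold (Jmjd1c) to 121-fold (Bcor) apart by the ratio of means.

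Among the falls, Lars2 stood furthest from the rest. Lars2, the mitochondrial leucyl-tRNA synthetase gene (chromosome 9, 123366927 to 123462666), had 932.8, 849 and 745.7 CPM in the IP and 16490, 12140 and 9356 CPM in the supernatant (log2 -3.88, SE 0.10, adjusted p = 2.43e-05). No other tRNA synthetase gene came near this. Of 37 tested, 2 were higher and 4 lower, with a median of -0.08. The counts were 1 to 3 higher and 1 to 4 lower with 1 pool or library left out. The mean of Lars2 in the supernatant was 12660 CPM, above the 9040 CPM of Rn45s, the precursor of ribosomal RNA. Whether the reads counted for Lars2 came from its mRNA was not tested. Malat1, a long noncoding RNA kept in nuclei (chromosome 19, 5795690 to 5802672), stood at 1615, 1923 and 1392 CPM in the IP and at 7733, 7038 and 6459 CPM in the supernatant (-2.12, SE 0.09, adjusted p = 0.000114). Eef1a2, the neuronal and muscle form of the elongation factor that brings aminoacyl-tRNA to the ribosome, was at 36.0, 36.5 and 45.5 CPM in the IP and at 196, 194 and 201 CPM in the supernatant (-2.33, SE 0.13, adjusted p = 0.000341). All 3 supernatants were nearly equal for Eef1a2. Neat1, the RNA scaffold of paraspeckles (-2.35, SE 0.65, adjusted p = 0.0400), and Pdzd4 (-1.92, SE 0.52) completed the list with wide IP ranges of 0.938 to 7.79 and 1.89 to 6.49 CPM. The call on Neat1 ended without the block and on leaving out pool 1 or 2, IP 1 or 2, or any supernatant (adjusted p 0.107 to 0.251), and that on Pdzd4 without pool 1 or 2, IP 2 or any supernatant (0.0747 to 0.183) and with library-size scaling (0.0501).

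Of the remaining falls, Nxn, a thioredoxin family oxidoreductase, changed by -2.46 (SE 0.37), Sepx1, a methionine sulfoxide reductase, by -2.16 (SE 0.34), Bri3 by -2.11 (SE 0.28), Chmp4b, a subunit of the ESCRT-III membrane scission complex, by -1.91 (SE 0.23) and Fbll1, a fibrillarin-like gene, by -1.90 (SE 0.15). Beta-s, the table's name for an adult haemoglobin beta chain, stood at 19.5, 24.6 and 12.9 CPM in the IP and at 98.7, 77.8 and 52.7 CPM in the supernatant (-2.01, SE 0.20). Its near-identical neighbour genes make that count uncertain. Rps29, a protein of the small ribosomal subunit (chromosome 12, 69157722 to 69159186), stood at 21.7, 43.5 and 24.95 CPM in the IP and at 128, 129 and 103 CPM in the supernatant (-2.06, SE 0.22, adjusted p = 0.00160). Its coding sequence has 171 bases, where that of Prr12 has 6108.

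The transcripts that took the most counts changed places between the fractions. The gene with the most IP counts was 2900097C17Rik, which is annotated with no coding region (chromosome 2, 156388065 to 156392979), at 6417, 6231 and 4835 CPM in the IP and 1087, 1072 and 1245 CPM in the supernatant (log2 2.35, SE 0.13, adjusted p = 0.000337). Rn45s, the 45S precursor of ribosomal RNA, stood at 3946, 4438 and 3508 CPM in the IP and at 7587, 11380 and 8148 CPM in the supernatant (-1.17, SE 0.08), although the protocol selects polyadenylated RNA. Nefl, the light chain of neurofilaments, had 2616, 3558 and 3450 CPM in the IP and 686.8, 627.7 and 735.4 CPM in the supernatant (2.22, SE 0.11). Mtap1b, a microtubule-associated protein of axons, was also higher (1.12, SE 0.08). The 8 genes with most counts in the IP made up 2.91 to 3.17% of IP counts and 2.21 to 2.59% of supernatant counts.

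Not every abundant transcript moved. Ckb, brain creatine kinase, had 3489, 3113 and 3864 CPM in the IP and 3698, 3639 and 3564 CPM in the supernatant (-0.06, SE 0.08, adjusted p = 0.596), and Ndrg4 had -0.13 (SE 0.07, adjusted p = 0.246). Hspa8, the constitutive heat shock cognate chaperone, and Aldoa, the glycolytic aldolase, passed with small ratios of 0.30 (SE 0.08) and -0.27 (SE 0.07), of which that of Aldoa was no longer called without the block (adjusted p = 0.0772) or with library-size scaling (adjusted p = 0.156). Both calls also ended on leaving out pool 1 or 2, IP 1 or any supernatant, as did Hspa8 without pool 3 or IP 3 and Aldoa without IP 2 (adjusted p up to 0.335 and 0.186). The supernatant's 8 leading genes made up 1.79 to 2.02% of IP counts and 4.09 to 4.88% of supernatant counts. Besides Lars2, Rn45s and Malat1 they included Calm2, one of the calmodulin genes (-1.09, SE 0.06), Nap1l5 (-0.84, SE 0.05), the ferritin heavy chain Fth1 (-0.78, SE 0.10) and Gnas, the stimulatory G protein subunit (-0.52, SE 0.06).

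Chromatin regulators were higher as a group. Of 49 genes for chromatin and nuclear co-regulator proteins tested, 42 rose and none fell, with a median log2 ratio of 1.49 against -0.10 over all genes. This list contained 8 of the 12 genes above, since those were known from earlier results. Without them, 34 of 41 rose and the median was 1.24. The list as a whole was also chosen with earlier results of these data known. These counts therefore describe the list and are no independent test of it. Tcf20, a transcriptional coregulator, had 298, 528 and 385 CPM in the IP and 19.4, 22.8 and 17.8 CPM in the supernatant (log2 4.31, SE 0.16, adjusted p = 9.45e-05). Kdm6b, which removes methyl groups from histone H3 lysine 27, rose by 4.07 (SE 0.18), the remodeller Chd7 by 3.43 (SE 0.22) and Arid1a, a subunit of SWI/SNF complexes, by 2.02 (SE 0.13). The acetyltransferases Ep300 (1.94, SE 0.18) and Crebbp (1.35, SE 0.19) followed. The remodeller Chd8 did not pass (0.36, SE 0.21, adjusted p = 0.269). Leaving out 1 pool or library left 34 to 43 of the 49 called.

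Among large membrane proteins and ion channel subunits some members rose and many did not pass, where 13.3% of all genes rose and 12.7% fell. Of 25 large adhesion receptors and their relatives, 12 rose and none fell (median 1.34). Celsr3, an atypical cadherin that guides axons, stood at 47.9, 49.2 and 23.4 CPM in the IP and at 9.01, 7.41 and 4.33 CPM in the supernatant (2.53, SE 0.23), Odz4, a teneurin, rose by 1.95 (SE 0.17) and Lrp1, an endocytic receptor, by 1.46 (SE 0.16). Of 43 potassium channel genes, 18 rose and 2 fell (median 0.79), among them the voltage-gated subunit Kcnc1 (1.90, SE 0.13). Kcnc1 stood at 363, 474 and 332 CPM in the IP and at 118, 107 and 86.8 CPM in the supernatant. The count of 18 was 10 without pool 2 and 11 without supernatant 1, 2 or 3.

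Of 28 sodium, calcium and HCN channel genes, 13 rose and none fell (median 0.79). Cacna1d, the pore of a calcium channel of pacemaking cells, rose by 1.87 (SE 0.28), and Scn1a, a sodium channel pore, by 1.17 (SE 0.15). Their count was 8, 4 and 8 without pools 1, 2 and 3 and 8, 7 and 8 without supernatants 1, 2 and 3. Of 17 glutamate receptor genes, 9 rose and none fell (median 0.81), and the count was 5 and 4 without supernatants 1 and 2. Grin1, the obligatory NMDA receptor subunit, had 115, 140.1 and 162 CPM in the IP and 61.3, 69.5 and 57.2 CPM in the supernatant (2.22-fold by the ratio of means, adjusted p = 0.00357). Among 18 GABA-A and glycine receptor genes 3 rose, with a median of 0.11, and Gabrb1 led (1.08, SE 0.15). That count was 1 without pool 1 or 3 or supernatant 1 or 2.

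Proteins of the ribosome, the respiratory chain and the proteasome formed the opposite end. Of 78 cytosolic ribosomal protein genes, 74 fell and none rose (12.7% of all genes fell), with a median log2 ratio of -1.14, and 50 to 74 were called when 1 pool or library was left out. Their processed copies elsewhere in the genome make the counts of single members uncertain. Oxidative phosphorylation was covered by 76 nuclear genes, of which 67 fell and 1 rose (median -1.19), and 65 to 67 fell in each set with 1 pool or library left out. Cox6c, a small subunit of cytochrome c oxidase, stood at 157, 299 and 169 CPM in the IP and at 647, 661 and 484 CPM in the supernatant (-1.57, SE 0.17). The single rise was Ndufs1, the largest subunit of complex I, at 217, 217 and 211 CPM in the IP and 145, 151 and 157 CPM in the supernatant (0.51, SE 0.10). That call ended without any 1 pool and without supernatant 1 or 2 (adjusted p 0.0567 to 0.0832).

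Of 76 mitochondrial ribosomal protein genes, 56 fell (median -0.82), and 34 did without supernatant 1 or 2. Of 34 proteasome genes, 31 fell (median -0.67), with 19 called without pool 1 or supernatant 2. Psmd8, a subunit of the regulatory lid, changed by -1.20 (SE 0.12) and Psmb6, a catalytic subunit, by -0.91 (SE 0.11). Of 18 histone genes with counts enough to test, 11 fell and none rose (median -1.17), led by the linker histone H1fx (-1.66, SE 0.15) at 39.7, 45.3 and 33.1 CPM in the IP and 141, 121 and 111 CPM in the supernatant. The histone count was 7, 6 and 7 without pools 1, 2 and 3 and 5, 6 and 7 without supernatants 1, 2 and 3. Summed levels showed the same order. Ribosomal protein genes held 6500 to 10300 CPM in the IP and 13900 to 17300 CPM in the supernatant. The chromatin list held 13900 to 17300 CPM in the IP and 2050 to 2230 CPM in the supernatant. Without the 8 genes known from earlier results, the chromatin list held 5890 to 6670 CPM in the IP and 1940 to 2090 CPM in the supernatant.

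**Figure D2:**
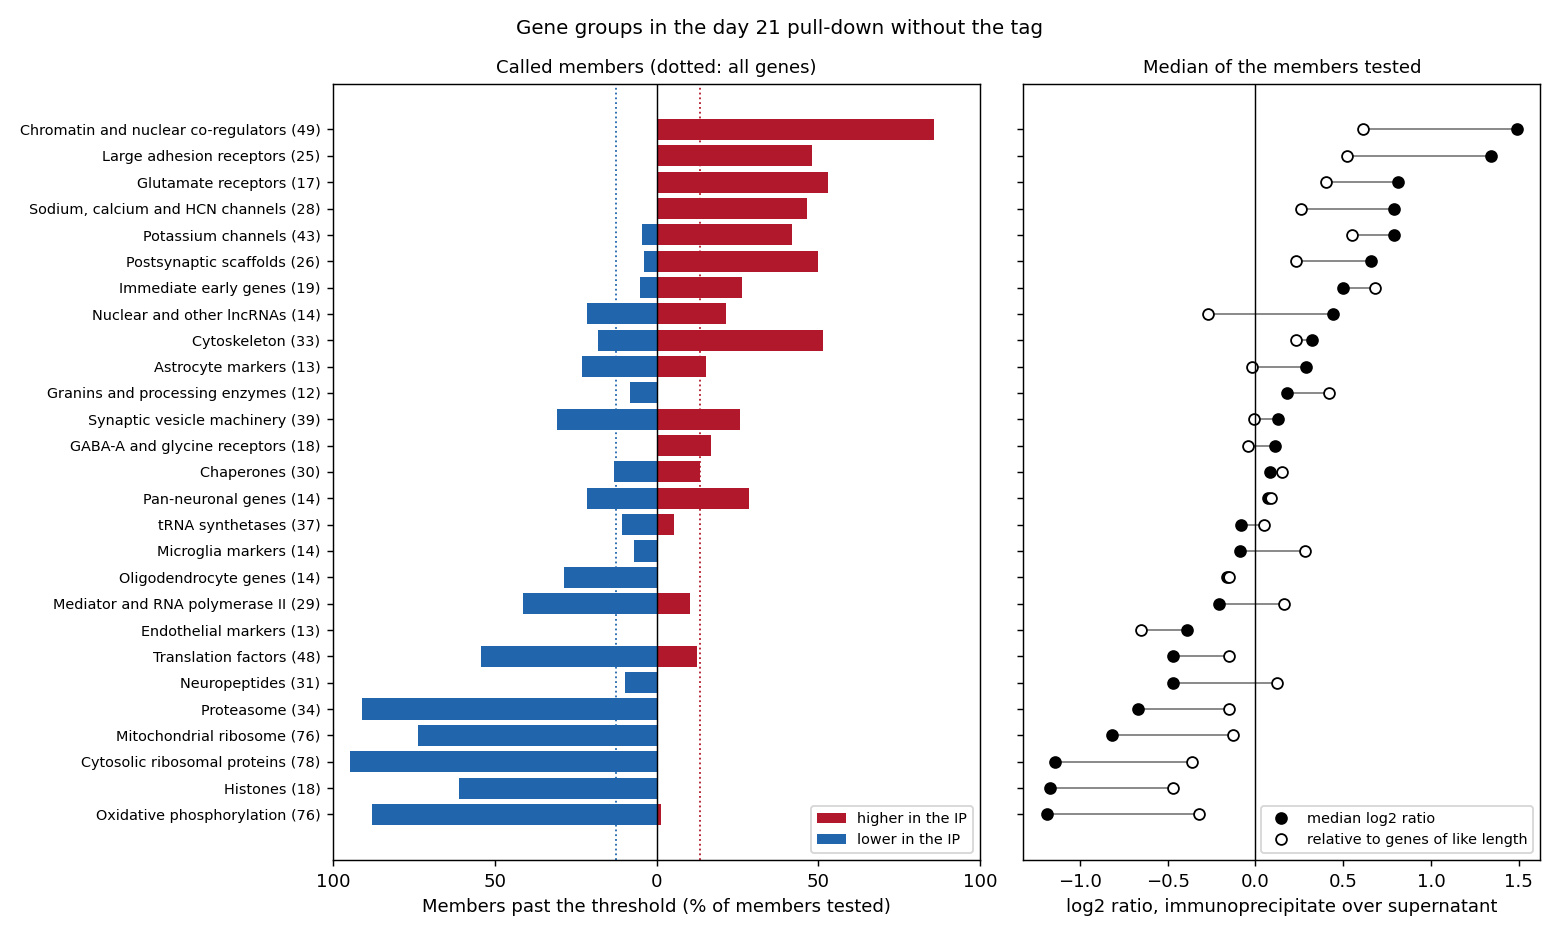
Left, members of each gene group past the threshold as a percentage of the members tested (number in brackets), red to the right for higher and blue to the left for lower in the IP, with dotted lines at the 13.3% and 12.7% of all genes; reference, meningeal, ependymal, blood, oligodendrocyte precursor and GnRH neuron genes are not plotted. Right, the median log2 ratio of IP over supernatant (filled) and the same relative to genes of like transcript length (open). Among the groups plotted, chromatin regulators stand at the top with a median of 1.49 and oxidative phosphorylation genes at the bottom with -1.19. Both open circles lie nearer to 0. Without the 8 members known beforehand to be high, the chromatin median is 1.24, below the 1.34 of large adhesion receptors.

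Within several complexes, the rises lay among large subunits and most falls among small ones. Of 29 Mediator and RNA polymerase II genes, 3 rose and 12 fell. Med13l, a large subunit of the Mediator kinase module with a coding length of 6624 nt, stood at 138, 212 and 144 CPM in the IP and at 24.8, 24.3 and 29.4 CPM in the supernatant (log2 2.63, SE 0.20). Polr2f, a small polymerase subunit of 384 nt, stood at 36.7, 46.5 and 33.6 CPM in the IP and at 98.3, 83.1 and 77.4 CPM in the supernatant (-1.15, SE 0.17). Across the 29 members the rank correlation of the ratio with coding length was 0.88, a description over genes that share the same 6 libraries. The lower count was 5 and 4 without pools 1 and 2 and 5 and 6 without supernatants 1 and 2, and the higher count 5 without IP 2.

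Translation factors showed a similar division. Of 48, 6 rose and 26 fell (median -0.47). Eif4g1, the scaffold of the cap-binding complex with 4803 nt, rose to 294, 265 and 317 CPM in the IP, against 90.9, 89.5 and 110.1 CPM in the supernatant (1.59, SE 0.10), and Eif3a, the largest subunit of its complex, by 1.17 (SE 0.11). Eef1b2, with 678 nt, changed by -1.20 (SE 0.11). Eif4ebp2, a short repressor of cap-dependent initiation, went against this order (0.72, SE 0.21), and its call ended without any 1 pool or supernatant (adjusted p 0.0969 to 0.202). The rank correlation with coding length was 0.52. The 6 rises were 3 without pool 2 or 3 or any supernatant, and the 26 falls were 14 without pool 1 or 2 and 17 and 13 without supernatants 1 and 2.

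In axons and synapses the division ran through both sides. Of 33 cytoskeletal genes, 17 rose and 6 fell (rank correlation 0.81 with coding length), and 13 to 16 rises were called with 1 pool or library left out. Nefh, the heavy neurofilament chain, had 908.5, 1123 and 1217 CPM in the IP and 124, 109 and 125 CPM in the supernatant (log2 3.17, SE 0.12, adjusted p = 9.45e-05). Dync1h1, the dynein motor chain of 13935 nt, rose by 2.18 (SE 0.18), while Dynll1, a dynein light chain of 270 nt, stood at 363, 443 and 413 CPM in the IP and at 862, 924 and 910.2 CPM in the supernatant (-1.15, SE 0.08). Of 39 synaptic vesicle genes, 10 rose and 12 fell (rank correlation 0.73). Bsn, the active zone scaffold Bassoon with 11829 nt, rose by 1.83 (SE 0.24) and its relative Pclo by 1.17 (SE 0.11). Sncb, beta-synuclein with 402 nt, stood at 293, 321 and 305 CPM in the IP and at 1026, 930.1 and 903 CPM in the supernatant (-1.64, SE 0.09), and the vesicle SNARE Vamp2 changed by -0.80 (SE 0.06). The vesicle rises were 6 without pool 1 or 3 or any supernatant, and the falls 7 without any supernatant.

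Postsynaptic genes gave 13 rises and 1 fall of 26 (median 0.66). The scaffolds Shank2 (1.90, SE 0.17) and Shank1 (1.66, SE 0.21) led. Nrgn, the short calmodulin-binding protein neurogranin of 237 nt, fell to 179, 185 and 269 CPM in the IP, against 408, 361 and 547 CPM in the supernatant (-1.06, SE 0.10). The 13 rises were 5 without pool 2 or 3 and 4, 4 and 6 without supernatants 1, 2 and 3. Accessory channel subunits were mixed. Kcnab2 (-0.73, SE 0.11) and Kcnip4 (-0.66, SE 0.11), both accessory to potassium channels, were the 2 falls of that list, and the sodium channel beta subunit Scn2b did not pass (-0.22, SE 0.15, adjusted p = 0.334). Scn3b, of the same beta family, rose by 0.90 (SE 0.17), a call that ended without pools 1 and 2 (adjusted p of 0.0619 and 0.0647). The call on Kcnip4 ended without pool 2 (adjusted p = 0.0530) and that on Kcnab2 without supernatants 1 and 2 (0.0701 and 0.0720), and 3 genes of the list were lower without IP 2. Glutamate and GABA-A receptor subunits showed little such order (rank correlations of -0.07 and -0.01).

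**Figure D3:**
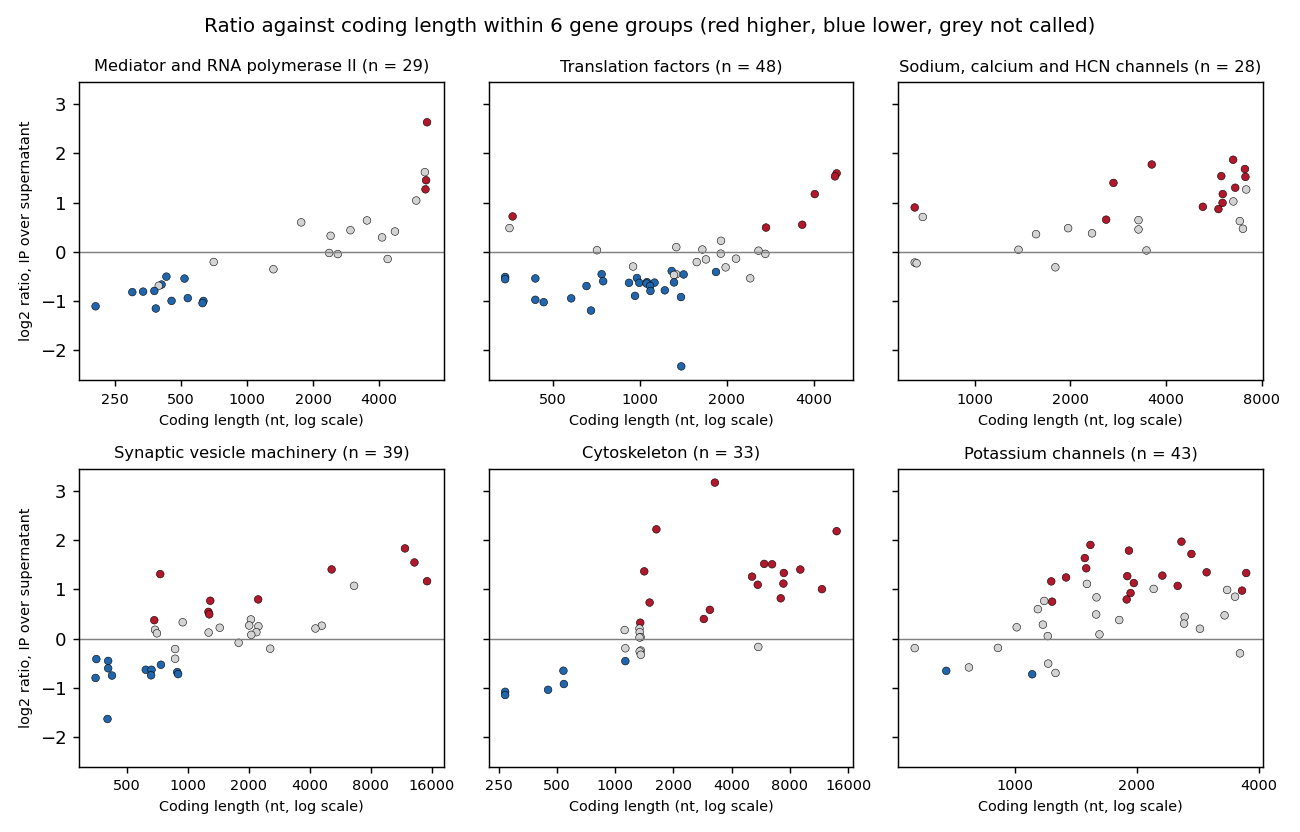
Log2 ratio of IP over supernatant against coding length (log axis) in 6 gene groups, 1 point per gene, red for higher, blue for lower and grey for genes that did not pass. In the Mediator and polymerase panel the blue points lie among the shortest coding sequences (median 418 nt) and the red ones among the longest (median 6558 nt).

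Over all genes the ratio ran with transcript length far more than with GC content. The rank correlation of the log2 ratio with the length of the annotated transcript was 0.488 across 14461 protein-coding genes, with coding length 0.427, with 3′ UTR length 0.308, with 5′ UTR length 0.171 and with GC content -0.024. It was 0.234 with the longest run of A and 0.144 with the number of overlapping CAGCAGCAG matches. Neither of these 2 was set against length. Within pools 1, 2 and 3 the value for transcript length was 0.415, 0.397 and 0.441, and among 11263 genes with a mean of at least 5 CPM it was 0.586. The genes share the same 6 libraries and are no replicates, and the longest annotated transcript need not be the one expressed. Among the 2895 shortest transcripts (up to 1815 nt) the median log2 ratio was -0.69, with 0.967% of genes higher and 35.0% lower. Among the 2889 longest (from 5156 nt) it was 0.62, with 37.2% higher and 1.87% lower. The genes called higher had a median transcript length of 5389 nt and those called lower 1735 nt, with 3097 nt over all genes tested. Over 5 classes of GC content the medians stayed between -0.15 and -0.06.

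**Figure D4:**
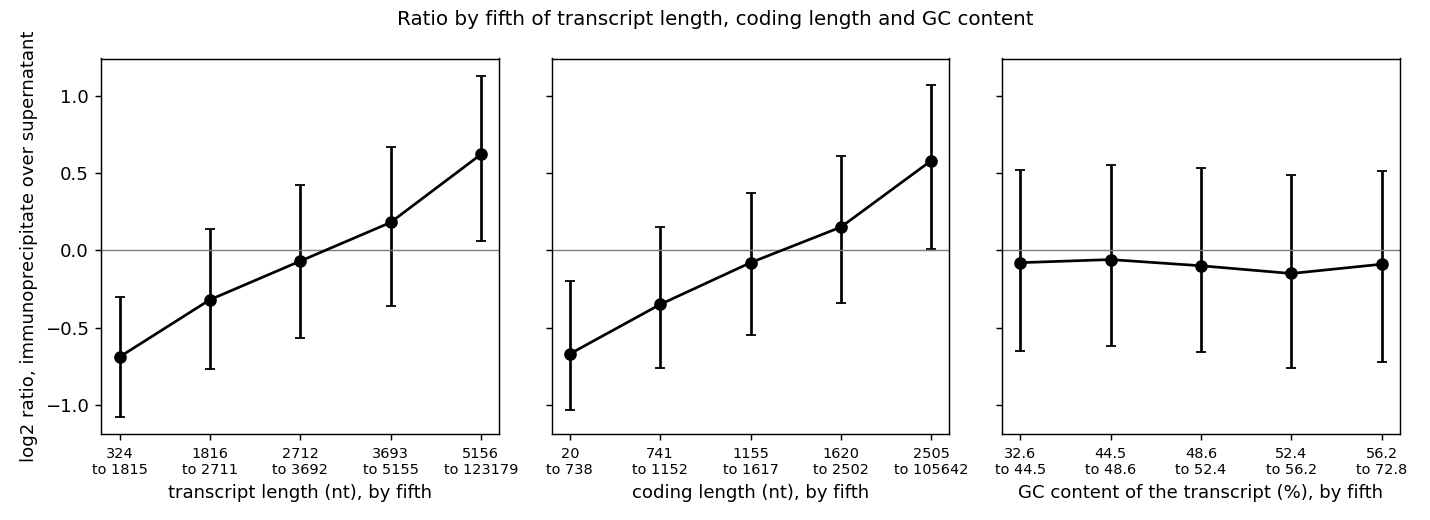
Median log2 ratio of IP over supernatant (points) with the quartiles (bars) in 5 classes of near-equal size by transcript length, coding length and GC content, with the range of each class on the axis. The medians climb from -0.69 for the shortest to 0.62 for the longest transcripts and stay between -0.15 and -0.06 over GC content.

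The shift was visible in the make-up of each library. Transcripts over 8000 nt (842 genes) took 7.4, 7.6 and 7.8% of scaled counts in the IP and 3.2, 3.2 and 3.3% in the supernatant. Transcripts of up to 1000 nt (873 genes) took 4.2, 5.3 and 3.7% in the IP and 8.3, 8.2 and 7.0% in the supernatant. The class from 2000 to 4000 nt held 37.9 to 39.8% in the IP and 39.4 to 40.6% in the supernatant, so that the fractions overlapped there.

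**Figure D5:**
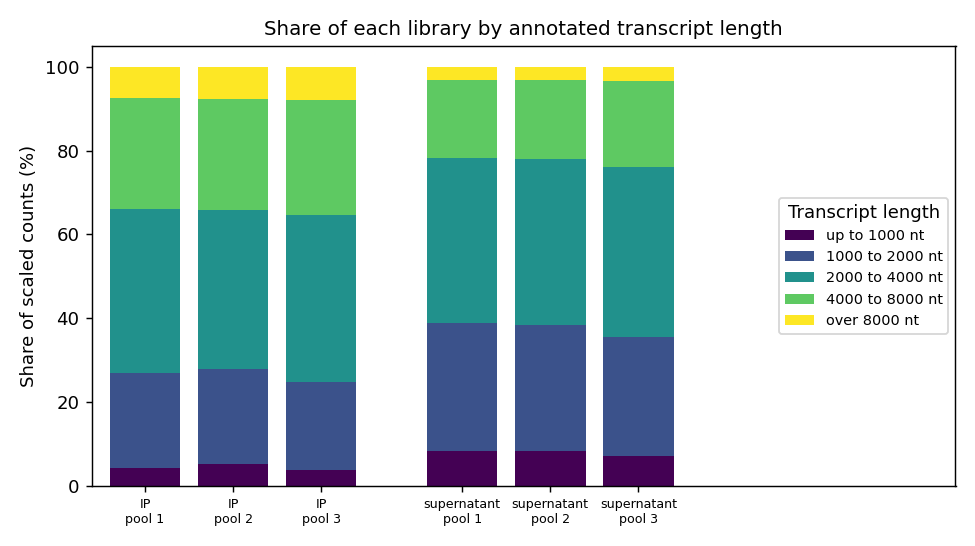
Share of scaled counts (%, stacked to 100) by class of annotated transcript length in each of the 3 IP libraries (left) and 3 supernatants (right). The class over 8000 nt takes 7.4 to 7.8% of the IP and 3.2 to 3.3% of the supernatant.

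Genes of like length still differed. Each gene was set against the median of the genes in its own twentieth of transcript length, a comparison added after the data were seen. Prr12 stood 6.18 and Bcor 6.23 above genes of like length on the log2 scale, Nefh 3.05 and Btg2 2.75, and Lars2 stood at -3.95, Malat1 at -2.79 and Eef1a2 at -2.02. In all, 137 of the higher genes were at least 4-fold above genes of like length, and 47 of the lower ones at least 4-fold below. The chromatin list kept a median of 0.61 on this scale (1.49 before), with 43 of 49 members above, and without the 8 genes known beforehand 0.50, with 35 of 41 above. Immediate early genes had the highest median of the lists, 0.68, and potassium channels had 0.55, large adhesion receptors 0.52, granins and their processing enzymes 0.42 and glutamate receptors 0.40. The lowest medians were those of the 4 blood genes (-0.81) and the 13 endothelial genes (-0.65). Of the endothelial genes 0 were called and 5 lay above genes of like length. All 13 together summed to only 39.8 to 57.6 CPM in the IP. Ribosomal proteins had -0.36, oxidative phosphorylation -0.32 and histones -0.47. Mitochondrial ribosomal proteins (-0.13, 23 of 76 above) and proteasome subunits (-0.15, 9 of 34 above) stood nearer to genes of their length, with most members below.

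Markers of the tissue's main cell types were counted in both fractions, and the calls among them stand beside 13.3% of all genes higher and 12.7% lower. An IP and its supernatant came from 1 pool, so their ratio is no measure of the number of cells of a type. Between pools of bulk tissue, fewer cells of a type and less RNA per cell cannot be told apart. Of 14 pan-neuronal genes, 4 rose and 3 fell, and the list summed to 11800 to 13500 CPM in the IP and 10700 to 10800 CPM in the supernatant. The rises included Nefl and Nefm (1.37, SE 0.07) and the falls Uchl1 (-0.84, SE 0.07), Stmn2 (-0.66, SE 0.09) and Snap25 (-0.64, SE 0.07). The 4 rises were 2 without pool 1 or 3 or any supernatant. Rbfox3, the neuronal nuclear antigen, had 0.33 (SE 0.10, adjusted p = 0.0613), which passed with library-size scaling (0.46, adjusted p = 0.0184) and by DESeq2 (0.0247). Of 14 oligodendrocyte genes 4 fell, with sums of 4720 to 7370 CPM in the IP and 5120 to 7370 CPM in the supernatant, and the count was 1 or 2 without any 1 pool, 1 without IP 1 or 2 or supernatant 1 or 2 and 0 without supernatant 3, and 2 without the block. Myelin basic protein, Mbp, had 2091, 2002 and 2766 CPM in the IP and 2112, 1859 and 2550 CPM in the supernatant (0.07, SE 0.06, adjusted p = 0.473), and it was called higher with library-size scaling (0.21, adjusted p = 0.0388). Both fractions were highest in pool 3.

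Astrocyte genes gave 2 rises and 3 falls of 13, with sums of 1390 to 2290 CPM in the IP and 1730 to 1960 CPM in the supernatant. IP 1 stood apart for some of them. Gfap, the astrocyte filament protein, had 761, 170 and 196 CPM in the IP and 241, 264 and 306 CPM in the supernatant (0.09, SE 0.46), and without pool 1 it was lower (-0.64, adjusted p = 0.0298). Aqp4, the water channel of astrocyte endfeet, had 146, 23.9 and 33.1 CPM in the IP and 19.9, 23.99 and 32.8 CPM in the supernatant. S100b, a calcium-binding protein, fell by 0.96 on the log2 scale (SE 0.16), and its call held with any 1 pool or library left out. The 2 rises were 0 or 1 without any 1 pool, IP 1, IP 3 or any supernatant, and the 3 falls were 1 without pool 2, IP 2 or any supernatant. Shares of 2 and 3 of 13 lie near those of all genes, and without the block 1 rose.

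Of 14 microglial genes Siglech alone was called (2 genes were lower without IP 1), at 0.115, 0 and 0.0396 CPM in the IP and 3.78, 4.61 and 2.74 CPM in the supernatant. With 2 of its IP values below the floor its fitted ratio is no bound, and the call ended without any 1 pool and without supernatant 1 or 2 (adjusted p 0.0529 to 0.0914). The microglial list summed to 104 to 139 CPM in the IP and 111 to 136 CPM in the supernatant. Of 13 endothelial genes edgeR called 0, with 0 at an unadjusted p under 0.05, while DESeq2 called 2 lower and 2 were lower without IP 1. They summed to 39.8 to 57.6 CPM in the IP and 36.2 to 80.1 CPM in the supernatant. Of 8 ependymal genes 1 fell (36.8 to 57.3 CPM in the IP, 48.3 to 109 CPM in the supernatant), and 0 fell without the block and without pool 1 or 2, IP 2 or 3 or any supernatant. Of 10 meningeal genes 2 rose and 2 fell, with sums of 266 to 1010 CPM in the IP and 393 to 1610 CPM in the supernatant, and no gene of the list was called without the block, with all 6 libraries or with 1 left out. Ptgds, prostaglandin D synthase, stood at 136, 356 and 558 CPM in the IP and at 269.9, 697 and 1089 CPM in the supernatants of the same pools (-0.97, SE 0.08). Pool 3 was highest in both fractions, the groups overlapped, and without the block the call ended (adjusted p = 0.289). The part of these pool differences in other results was not tested. Of 4 blood genes Beta-s alone was called (2 were lower without the block and without any 1 IP library or supernatant 1 or 3), with sums of 15.9 to 34.8 CPM in the IP and 63.7 to 120 CPM in the supernatant, and Slc4a1, the red cell anion exchanger, was at 0 in all 3 IP libraries.

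No peptide hormone gene was called higher in the pull-down. Gnrh1, the GnRH precursor gene (chromosome 14, 67745181 to 67749439), stood at 10.2, 12.1 and 7.73 CPM in the IP and at 27.0, 28.4 and 17.8 CPM in the supernatant, with no overlap (log2 -1.28, SE 0.25, adjusted p = 0.0121). Pool 3 had the lowest value in both fractions. The call ended without pool 1 or 2 or supernatant 1 or 2 (adjusted p 0.0640 to 0.0834), and the ratio stayed between -1.31 and -1.22 there. Genes of like length had a median log2 ratio of -0.97, and relative to them Gnrh1 stood at -0.31. Of 31 neuropeptide genes, 3 fell and none rose, where 12.7% of all genes fell. Their median was -0.47, and relative to genes of like length it was 0.12 with 20 of 31 above. The falls included Sst, somatostatin, at 74.5, 68.1 and 39.2 CPM in the IP and 156, 118 and 65.9 CPM in the supernatant (-0.87, SE 0.14). The call on Sst ended without the block (adjusted p = 0.101) and, in the fits of 5 libraries, without any 1 IP library or supernatant 1 or 2 (0.102 to 0.290). The 3 falls were 1 without pool 1 or 2 and 0 without supernatant 1 or 2. Npvf and Qrfp were at 0 in all 3 IP libraries. Rpl10a, whose protein is the one fused to GFP in positive mice, had 96.5, 126 and 74.98 CPM in the IP and 164, 166 and 126 CPM in the supernatant (-0.64, SE 0.13, adjusted p = 0.0132). Its highest IP and lowest supernatant value nearly met, and the call ended without the block (adjusted p = 0.0682) and without pool 1 or 3, IP 1 or 3 or supernatant 1 or 2 (0.0587 to 0.165). Relative to genes of like length, Rpl10a stood at 0.33 and Sst at 0.10.

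Immediate early genes and noncoding RNAs were mixed. Of 19 immediate early genes, 5 rose and 1 fell (median 0.50), and 1 to 3 rose without any 1 pool or supernatant. The fall, of Jund, was 0 genes without supernatant 1 or 2, and 2 genes fell without IP 1. Btg2, an antiproliferative early gene, had 99.2, 78.0 and 88.5 CPM in the IP and 15.4, 12.7 and 15.2 CPM in the supernatant (2.62, SE 0.16, adjusted p = 0.000463). Fos, the archetype of the class, had 32.8, 12.8 and 14.9 CPM in the IP and 26.4, 19.6 and 25.8 CPM in the supernatant (-0.36, SE 0.29, adjusted p = 0.426). Of 14 long noncoding RNAs, 3 rose and 3 fell (median 0.44), with Malat1 and Neat1 among the falls and Tug1 (0.88, SE 0.13) among the rises. The rises were 1 without pool 2 or 3 or supernatant 2 or 3, and the falls 1 without the block and without pool 1 or 2, IP 1 or 2 or any supernatant.

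Of 16 genes often used as references, 1 rose and 4 fell, a share close to the 26.0% of all genes. Their median was -0.23, and 0.07 relative to genes of like length. Ppia, cyclophilin A, stood at 1333, 1684 and 1532 CPM in the IP and at 3134, 3304 and 2916 CPM in the supernatant (-1.04, SE 0.08), and Rplp0 changed by -0.80 (SE 0.11). Actb (-0.20, SE 0.07, adjusted p = 0.0848) and Gapdh (-0.34, SE 0.11, adjusted p = 0.0702) did not pass, and both were called lower by DESeq2 (0.0163 and 0.00307). Polr2a stood at 25.8, 17.0 and 75.3 CPM in the IP and at 15.7, 14.4 and 16.5 CPM in the supernatant. It did not pass (1.04, SE 0.39, adjusted p = 0.105), and it passed by DESeq2 (0.0253). The count of rises was 0 without the block and without any 1 pool, IP 1 or 3 or any supernatant.

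The IP libraries differed more from each other than the supernatants did. The median SD of log2 CPM over 3 libraries was 0.426 in the IP and 0.194 in the supernatant, and it was wider in the IP for 82.4% of genes. At 64 CPM or more it was 0.226 in the IP and 0.124 in the supernatant, and between 1 and 8 CPM it was 1.219 in the IP and 0.391 in the supernatant. Calls followed: 0.987% of genes between 1 and 8 CPM were higher and 0.677% lower, against 19.7% and 37.2% at 64 CPM or more. The next 4 genes were picked for a wide IP range beside a supernatant range under 1 on the log2 scale, so that contrast is no finding. Zbtb8a, a zinc finger gene, had 6.09, 0.130 and 38.0 CPM in the IP and 6.29, 10.4 and 6.73 CPM in the supernatant. Il6st, the shared receptor of the interleukin-6 family, had 43.7, 20.4 and 3.09 CPM in the IP and 7.81, 11.5 and 9.90 CPM in the supernatant. Emp2 (34.9, 1.77 and 13.7 CPM in the IP) and Gpr176 (19.04, 44.8 and 3.58 CPM in the IP) were picked likewise (6.03 to 10.8 and 11.1 to 16.8 CPM in the supernatant). The highest IP library differed among the 4.

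Few expressed genes were missing from the pull-down. Of 13428 genes at 1 CPM or more in all 3 supernatants, 12934 (96.3%) had a count in every IP library, 401 lacked one in 1 library, 80 in 2 and 13 (0.0968%) in all 3. At 5 CPM or more in all supernatants, none of 10883 genes was missing from all 3. Conversely, none of 12353 genes at 1 CPM or more in all IP libraries was at 0 in every supernatant. Among genes at 0 in all 3 IP libraries the highest supernatant mean was that of Gsx1, a homeobox gene of forebrain progenitors, at 2.65, 3.02 and 1.59 CPM. Against a floor of 3 counts over the 3 IP libraries together, which covers counting error only, Gsx1 was at least 114-fold lower in the IP. Between 1 and 8 CPM the median SD of log2 CPM over the IP libraries was 1.219. Gsx1 was also picked for its 0 counts, so the fold is no bound beyond counting error. Bmx, a Tec family kinase gene, was also at 0 in the IP and had 0.400, 0.431 and 5.79 CPM in the supernatant, so 1 pool carried it. In the other direction, Niacr1 stood at 4.13 CPM in IP 1 and at 0 in the other 5 libraries, and Actl7b at 2.83 CPM in IP 1 alone.

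The adult pull-down without the tag gave no gene with a different ratio that passed. In a fit of the 10 negative libraries with the pool as a block, edgeR called 0 of 16361 genes for the difference between the young and the adult log2 ratio, with 1018 genes at an unadjusted p under 0.05 (6.22%). Limma voom called 0 and DESeq2 98. Age and genotype cannot be told apart here, since the young pools were Wild Type or Floxed L10a-GFP only and the adult pools GnRH CRE only. Prr12 had log2 6.84 (SE 0.24) in young and 6.58 (SE 0.29) in adult pools, and Bahcc1 6.51 (SE 0.17) and 6.72 (SE 0.20). Of the 12 named rises, Bahcc1 alone was larger in adult pools. The others were larger in young pools, by 0.25 (Prr12) to 0.79 (Yeats2) on the log2 scale, and none of these differences passed. The 12 were picked for their large ratios in the young pools, which by itself favours larger young values. Their number is therefore no finding about age. In young and adult pools the chromatin list had medians of 1.47 and 1.40. Ribosomal proteins had -1.16 and -0.69, and oxidative phosphorylation genes -1.21 and -0.72. Lars2 had -3.89 (SE 0.09) in young and -3.28 (SE 0.11) in adult pools, a difference of -0.61 (SE 0.13, adjusted p = 0.798). Eef1a2 had -2.35 (SE 0.14) in young and -1.36 (SE 0.16) in adult pools. Gnrh1 had -1.30 (SE 0.26) in young and -0.20 (SE 0.31) in adult pools, and Beta-s -2.03 (SE 0.20) and -0.05 (SE 0.23), differences with adjusted p = 0.798 each.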

How the data were processed

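Whole-number read counts per gene symbol were deposited by the authors for 20 libraries and 19269 genes, without normalization. The build was mm10 and the tools included HTSeq 0.6.1, TopHat2 2.0.13 and DESeq2 1.14.1, per the submitters' processing notes. Their roles, the annotation and the strand setting are not given in the sources used here. Overlapping or antisense genes therefore cannot be told apart. The labels' protocols describe polyA RNA, micro columns with DNase, and SMARTer v4 amplification.

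Counts of the 6 libraries were fitted with edgeR 4.0.16 in R 4.3.3 (quasi-likelihood test, TMM, filterByExpr with a minimum count of 10, pool as a block, Benjamini-Hochberg adjustment, 2 residual degrees of freedom). Titles number the pools, each supernatant is what its own IP left, and deviations from the group means correlated at 0.22, 0.13 and 0.36 within pools 1, 2 and 3 and at 0.07 or less between pools (13464 genes). The age by fraction test used 10 libraries of 5 pools. DESeq2 1.42.0 and limma 3.58.1 served as alternatives, and the scripts were tested on simulated data. Lengths and coordinates came from GENCODE M21 (GRCm38, the assembly of mm10) for 98.3% of genes, using the longest protein-coding transcript, or the longest where there was none.

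Named genes were the 12 of largest ratio per direction among called genes with separate libraries and log2 CPM at or above 3 on average (predicted symbols left out), the 8 with most counts per fraction, up to 2 called members per list and direction, genes at 0 in one fraction, genes of widest IP range among those with a narrow supernatant range, Gnrh1 and Rpl10a. Not all of them are printed, and other list members were named after their values were seen. Members and lists were chosen with earlier results of these data known. Single libraries were left out in a fit without the block, whole pools in the fit with it. Some items are not reported here.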

Additional observations from a re-analysis of the deposited data

How the results depend on the processing

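Against a 2-fold threshold (glmTreat), 240 genes were higher and 16 lower. Without the replicate block 2072 were higher and 1854 lower, of which 1897 and 1633 were shared with the blocked fit, which has 2058 and 1958. DESeq2 gave 2428 and 2909. Leaving out 1 pool gave 996 to 1359 higher and 1074 to 1340 lower, and leaving out 1 library without the block gave 2140 to 2313 higher and 2095 to 2291 lower without an IP, and 930 to 1229 higher and 972 to 1618 lower without a supernatant (1015 and 1059 without supernatant 1). No gene called in one of these fits was called in the other direction in the blocked fit of 6. The age by fraction test gave 98 genes by DESeq2 and 0 in each of the other fits, with or without the block. The rank correlation with transcript length (0.488) was 0.586 from 5 CPM and 0.415, 0.397 and 0.441 within pools, and 0 genes were missing from all IP libraries at 5 CPM, against 13 at 1 CPM.

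Over the named genes and their alternatives, 2130 values kept the direction and the call, 265 lost the call, 25 gained one and 9 changed sign. Of the counts per gene list, 871 stayed within 1.5 times and 251 moved further, 9 of them without the block, 8 by DESeq2, 7 with library-size scaling and most of the others on leaving out a pool or library. The sign changes were Ckb (0.07 with library-size scaling, -0.18 to 0.01 with 1 pool left out, 0.02 without IP 2), Ndrg4 (0.00 with library-size scaling), Igf2 (0.03 without supernatant 3), Mbp (-0.09 without IP 3, -0.08 without supernatant 2) and Gfap (-0.64 to 0.51 with 1 pool left out, -0.57 without IP 1). The block changed the calls on Neat1, Aldoa, Sst, Rpl10a and Ptgds, given above, and on other list members not printed. Relative to genes of like length, the medians changed sign for astrocyte genes (-0.02), GABA-A receptors (-0.04), GnRH neuron genes (0.42), Mediator and polymerase (0.16), microglia (0.28), neuropeptides (0.12), long noncoding RNAs (-0.27), reference genes (0.07), synaptic vesicle genes (-0.01) and tRNA synthetases (0.05). The cause of these changes was not tested. Between 1 and 8 CPM, 0.987% of genes were called higher and 0.677% lower. The planned protein composition could not be run with the reference used here.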
